A study of Mus musculus with 2 samples.

Results

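The genes described here are 10 immediate early, NR4A and early activation genes, *Nr4a1*, *Nr4a2*, *Nr4a3*, *Fos*, *Fosb*, *Jun*, *Junb*, *Egr1*, *Egr2* and *Cd69*, of 22337 gene symbols measured in cells from transplanted mouse hearts. They were selected on measured values, namely their levels in the annotated cell types and their difference between graft groups in Tregs, so those values are given as a description without a test. Hearts of Bm12 donors, whose MHC class II molecule I-A is mutated, were transplanted into B6 recipients, whose CD4+ T cells respond to that molecule, and were taken at postoperative day 14. In 3 hearts the Bm12 donor was WT (IL-33+, hearts 1, 2 and 3), and in the other 3 the Bm12 donor was an IL33 KO (IL-33-, hearts 4, 5 and 6), so that both groups shared the donor mutation and the recipient strain and the recipient's own IL-33 was not removed in either. The hearts were perfused, digested with warm collagenase IV and DNase, and enriched for immune cells on a density gradient, and each heart was given a hashtag (a barcoded antibody) before all 6 were run as 1 pooled single-cell library. The heart is the replicate, with n = 3 hearts per group throughout. Each graft was a whole heart, so each came from a separate donor mouse. Ages are not given in the sources used here.

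Immediate early genes are transcribed within minutes of a stimulus from proteins that the cell already holds, without new protein synthesis. Fos and Fosb pair with Jun or Junb to form AP-1, a transcription factor that binds DNA as a dimer. Egr1 and Egr2 are zinc-finger transcription factors induced through the MAP kinase pathway and serum response factor, and Egr2 is known to restrain T cells. The NR4A family (Nr4a1 or Nur77, Nr4a2 or Nurr1, and Nr4a3 or Nor1) are nuclear receptors that act without a known physiological ligand. In T and B cells *Nr4a1* is induced by antigen receptor signalling and is widely used as a reporter of it, and NR4A factors help maintain *Foxp3* in Tregs. Cd69 is the early activation antigen of lymphocytes, a surface protein that retains cells in tissue by removing the S1P receptor S1pr1 from the membrane. The same genes respond to growth factors, mechanical stress and heat in most cell types.

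In all, 4441 cells had between 1500 and 14977 UMIs each (a UMI marks 1 captured transcript), and the hearts had between 230 and 1666 cells and between 908135 and 7012891 UMIs in total. The authors' annotation put the cells into 14 types. It held 263 Tregs, between 25 and 98 per heart. Of the 5 Treg markers examined (*Foxp3*, *Il2ra*, *Ctla4*, *Ikzf2* and *Tnfrsf18*), 4 were highest in the annotated Tregs and *Ikzf2* was highest in Tcm. A *Foxp3* UMI was seen in 51 of the 263 Tregs, and 4 of 7 markers of type 2 innate lymphoid cells (ILC2) were also highest in Tregs. The 3 fibroblast markers and the 3 endothelial markers were all highest in the cells annotated as fibroblasts, and the 3 neutrophil markers were highest in Mo-DCs. Some types were thin in some hearts, with 2 unconventional T cells and 4 Mo-DCs in heart 2 and 4 B cells and 4 fibroblasts in heart 5. No cell barcode occurred more than once. Levels are given as CPM, a gene's share of a cell's UMIs scaled to the same total in every cell, and a heart's level in a type is the mean of its cells of that type.

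All 10 genes are protein-coding. In GENCODE on GRCm38, *Nr4a1* lies at chr15:101254269-101274795, *Nr4a2* at chr2:57106830-57124003 and *Nr4a3* at chr4:48045153-48086447. Of the AP-1 genes, *Fos* lies at chr12:85473890-85477273, *Fosb* at chr7:19302696-19310051, *Jun* at chr4:95049034-95052222 and *Junb* at chr8:84974484-84978718. *Egr2* lies at chr10:67535475-67542188 and *Cd69* at chr6:129267325-129275436. The RefSeq promoter table (GRCm38.p6) held 8 of the 10 genes, all but *Egr1* and *Cd69*. The 250 bases before each transcript start were searched on both strands, counting a gene once where any of its starts had a match. Sequence further upstream was not searched. The letters TGACG, the core shared with the cyclic AMP response element, occurred upstream of 7 of the 8 genes, and of 19.8% of all 27025 genes in the table. The longer TGACGTCA, which contains it, was found at none of the 8 and at 1.77% of all genes. Within these 250 bases, the serum response element core (CArG box) was found only at *Egr2* among the 8, and at 1.62% of all genes. GCGGGGGCG, the sequence bound by EGR proteins, was found at *Nr4a1* and *Fosb*, and at 2.93% of all genes. The AP-1 sequence TGANTCA (7.82% of all genes) and the NR4A sequence AAAGGTCA (1.55%) were at none of the 8. Matches are a description of letters, not evidence of binding. *Nr4a1* and *Nr4a2* are shown because these family members were ordered differently over the cell types, and *Fos* as a gene that was highest in fibroblasts. *Egr2* is shown, at 1 of its listed starts, because it alone of the 8 held a CArG box in the searched bases. All windows run 5′ to 3′ to the base before the transcript start, and capitals mark any of the searched motifs.
Nr4a1 (chr15:101266596-101266845, plus strand): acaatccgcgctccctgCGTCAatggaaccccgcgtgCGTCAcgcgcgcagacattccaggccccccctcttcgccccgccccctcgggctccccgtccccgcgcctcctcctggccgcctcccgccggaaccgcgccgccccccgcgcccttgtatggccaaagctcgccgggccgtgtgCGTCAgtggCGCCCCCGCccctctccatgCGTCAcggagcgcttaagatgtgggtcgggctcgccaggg
Nr4a2 (chr2:57124004-57124253, minus strand): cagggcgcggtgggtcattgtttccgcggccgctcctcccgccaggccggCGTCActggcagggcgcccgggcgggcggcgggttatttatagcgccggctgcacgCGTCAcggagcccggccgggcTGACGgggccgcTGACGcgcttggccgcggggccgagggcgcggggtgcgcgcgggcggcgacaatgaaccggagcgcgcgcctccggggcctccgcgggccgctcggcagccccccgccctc
Fos (chr12:85473640-85473889, plus strand): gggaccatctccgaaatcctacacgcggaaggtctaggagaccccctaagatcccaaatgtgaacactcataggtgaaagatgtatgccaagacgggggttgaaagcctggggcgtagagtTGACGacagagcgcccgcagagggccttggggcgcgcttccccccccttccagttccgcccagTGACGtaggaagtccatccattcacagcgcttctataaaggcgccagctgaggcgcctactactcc
Egr2 (chr10:67537619-67537868, plus strand): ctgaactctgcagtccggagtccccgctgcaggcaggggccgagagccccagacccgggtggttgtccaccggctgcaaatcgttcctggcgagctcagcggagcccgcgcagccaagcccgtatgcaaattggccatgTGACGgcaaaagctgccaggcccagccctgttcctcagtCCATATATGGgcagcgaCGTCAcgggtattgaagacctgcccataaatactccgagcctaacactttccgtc
In the *Nr4a1* window TGACG matched 4 times, starting 233, 213, 69 and 40 bases before the transcript start, and GCGGGGGCG once at 60 bases. *Nr4a2* also had 4 TGACG matches, at 200, 144, 123 and 111 bases. *Fos* had 2, at 129 and 66 bases. In the *Egr2* window the CArG box began 72 bases before the start, between TGACG matches at 111 and 55 bases.

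The AP-1 genes *Fos*, *Fosb* and *Jun* and both EGR genes were highest in the fibroblasts, the NR4A genes *Nr4a2* and *Nr4a3* were highest in T cell types, and *Cd69* was highest in B cells. These are levels after the warm digestion that all hearts went through, and its part in the levels of any type was not tested. *Egr1* (GRCm38 chr18:34859823-34864984) in fibroblasts was 4549, 3500 and 3996 CPM in hearts 1 to 3 and 3825, 2134 and 4907 CPM in hearts 4 to 6, with a mean of 3819 ± 968 (SD, n = 6). The next type, Mo-DCs, had a mean *Egr1* level of 564 ± 132 CPM, 6.78-fold lower. The lowest fibroblast heart was above every heart of every other type, the closest being 4 B cells of heart 5 at 1865 CPM. *Fosb* was 2608 ± 537 CPM in fibroblasts, 4.43-fold above Mo-DCs, with hearts between 2184 and 3323 CPM. *Fos* was 1975 ± 340 CPM in fibroblasts, between 1580 and 2380 CPM by heart, and 3.39-fold above macrophages at 584 ± 437 CPM. For *Fos* and *Fosb*, too, the lowest fibroblast heart was above every heart of the next type. *Jun* had its highest mean in fibroblasts at 1507 ± 682 CPM, but the hearts ranged from 512 to 2560 CPM and overlapped those of Mo-DCs (574 ± 405 CPM). *Egr2* was low in every type, with 637 UMIs in all. Its mean was 106 ± 48.2 CPM in fibroblasts, and its second place in B cells (79.2 ± 148 CPM) came from heart 5, where 4 cells gave 378 CPM.

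Below fibroblasts, the next places of *Fos*, *Fosb* and *Jun* went to Mo-DCs and macrophages. *Jun* was lowest in Tem/eff (114 ± 73.2 CPM), and so was *Fos* (100.9 ± 25.6 CPM). *Egr1* was lowest in cDCs, at 56.1 ± 35.7 CPM, and *Egr2* there had 1 UMI in 171 cells. Of the 13 steps between neighbouring types in each gene's order, all but 1 for *Fos*, *Fosb*, *Egr1* and *Cd69*, and all for the other 6 genes, joined types whose hearts overlapped.

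*Junb* was at high levels throughout, from 1590 ± 349 CPM in B cells to 4538 ± 1498 CPM in Tregs. Tregs (3075 to 7428 CPM by heart), fibroblasts (2797 to 5614 CPM) and NK cells (3230 to 4715 CPM) overlapped at the top of its order. After every cell was thinned to 1500 UMIs, *Junb* was found in 97.0% of Tregs and in 77.6% of B cells, the lowest share among the types.

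The 3 NR4A genes were ordered differently over the cell types. *Nr4a2* was highest in Tem/eff (700 ± 191 CPM), followed by Tregs (529 ± 142 CPM) and NK cells (516 ± 99.8 CPM), and lowest in B cells (120 ± 75.9 CPM). *Nr4a3* was highest in Tregs (931 ± 213 CPM), followed by cDCs (756 ± 486 CPM) and Tem/eff (752 ± 164 CPM), and low in B cells (124 ± 49.9 CPM) and monocytes (51.4 ± 34.8 CPM). *Nr4a1*, in contrast, had its highest means in fibroblasts (778 ± 367 CPM), B cells (666 ± 293 CPM) and Tregs (593 ± 395 CPM), 3 types whose hearts overlapped. Over the 14 type means on the log2 scale, *Nr4a2* and *Nr4a3* had a Pearson r of 0.72, *Nr4a1* had r = -0.08 with *Nr4a2* and r = 0.12 with *Nr4a3*, and *Nr4a1* had r = 0.89 with *Egr1*. These correlations describe 14 types that share 1 library and 6 hearts. In naive T cells (Tn), *Nr4a2* (137 ± 65.4 CPM) and *Nr4a3* (213 ± 90.8 CPM) were each below their mean in the 6 other T cell types.

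*Cd69* was 565 ± 83.7 CPM in B cells, with hearts between 480 and 711 CPM, 1.98-fold above Tcm (285 ± 60.6 CPM). All 6 B cell values lay above all 6 of Tcm, while 1 heart of the Tregs reached 669 CPM. Trm-like cells, annotated after tissue-resident memory cells, had 199 ± 69.3 CPM. *Cd69* was near 0 in fibroblasts (22.0 ± 11.5 CPM) and monocytes (6.12 ± 7.03 CPM).

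**Figure D1:**
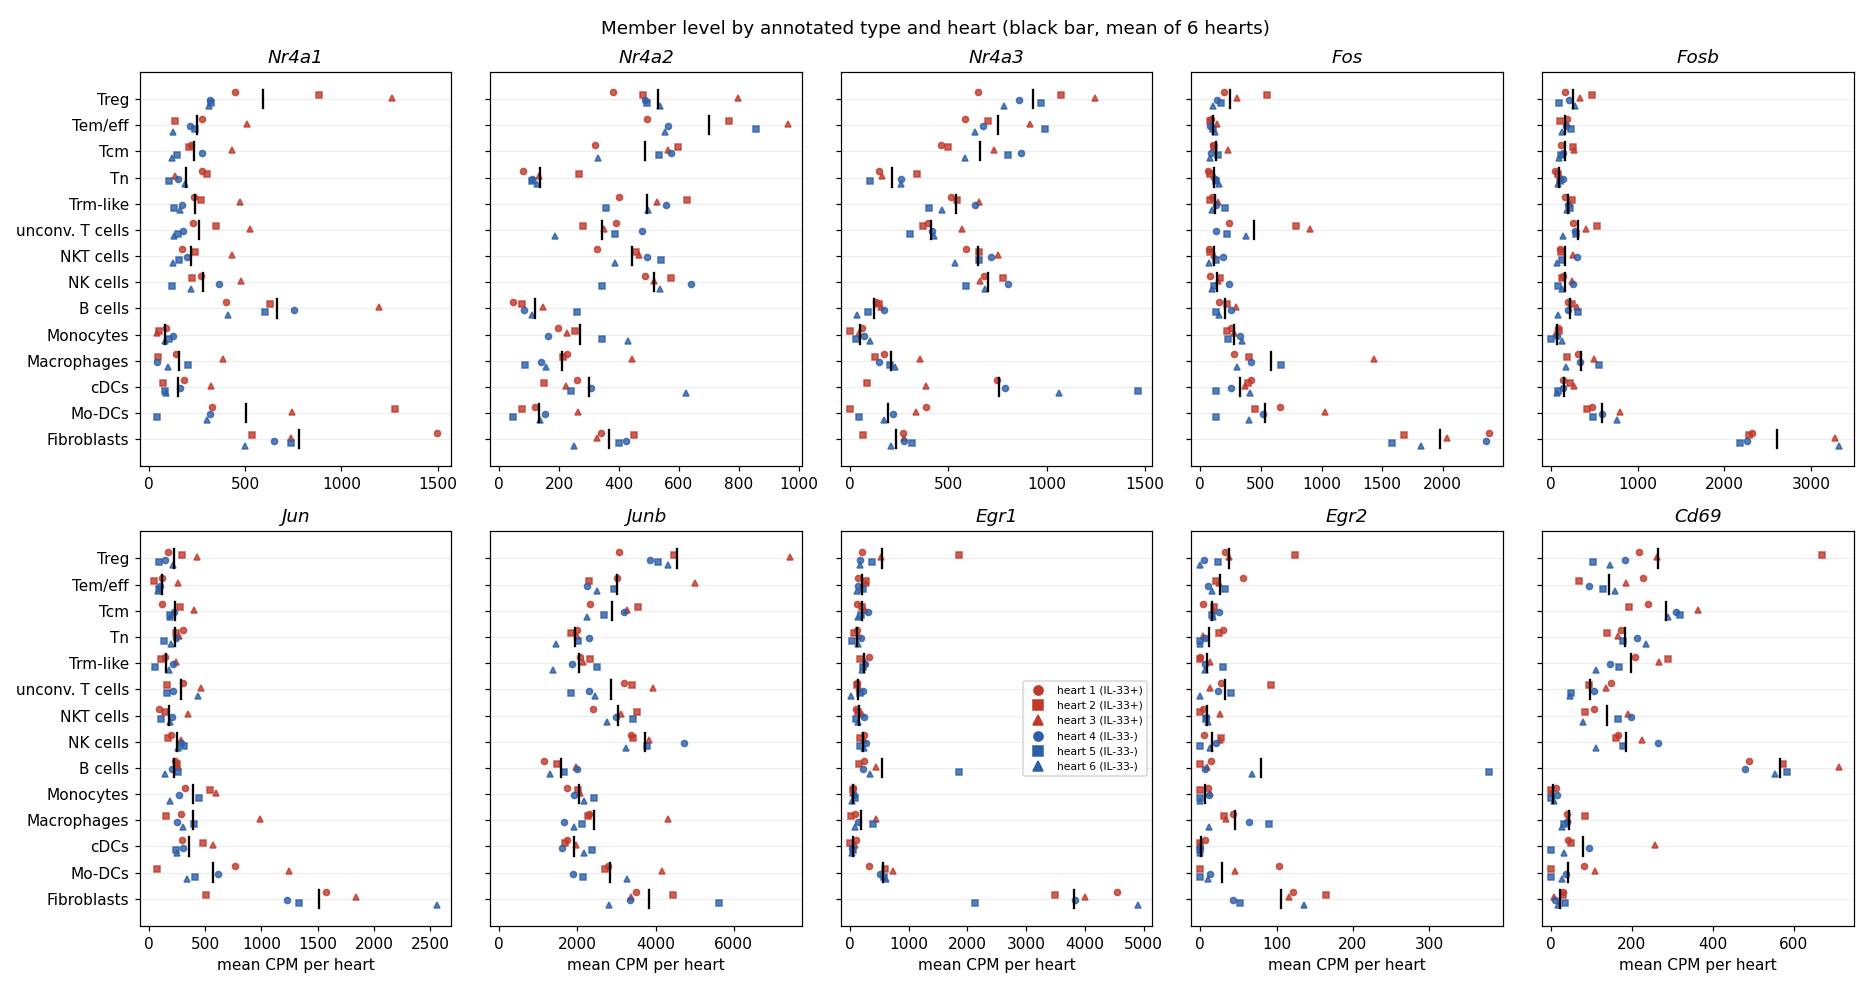
Mean CPM of each of the 10 genes (horizontal axis, one panel per gene with its own linear scale) in each annotated type (vertical axis), with 1 point per heart in red for IL-33+ and blue for IL-33- and a black bar at the mean of 6 hearts. *Egr1*, *Fosb* and *Fos* stand out in fibroblasts (means of 3819, 2608 and 1975 CPM), and *Cd69* in B cells (565 CPM), while the highest means of *Nr4a3*, in Tregs (931 CPM) and cDCs (756 CPM), lie among hearts that overlap those of other types.

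The shares of cells with a UMI gave a similar picture at 1 depth. Thinned to 1500 UMIs per cell, *Egr1* was seen in 327 of 375 fibroblasts (87.2%, 95% exact binomial interval 83.4 to 90.4%) and in 97 of 263 Tregs (36.9%, 31.0 to 43.0%). In cDCs it was seen in 12 of 171 cells (7.02%, 3.68 to 11.9%). *Cd69* was seen in 127 of 286 B cells (44.4%, 38.6 to 50.4%) and in 3 of 375 fibroblasts (0.8%, 0.165 to 2.32%). *Nr4a3* was seen in 165 of 263 Tregs (62.7%, 56.6 to 68.6%) against 51 of 286 B cells (17.8%, 13.6 to 22.8%). *Nr4a1* had its highest share in B cells (55.9%, 49.98 to 61.8%), ahead of fibroblasts (46.1%, 41.0 to 51.3%). Unconventional T cells (42.2%, 31.4 to 53.5%) and Tregs (41.8%, 35.8 to 48.0%) came next. Without thinning these were 68.2% in B cells, 73.3% in fibroblasts, 77.1% in unconventional T cells and 60.1% in Tregs. Their cells had medians of 2292, 5789, 10175 and 2860 UMIs. Free RNA from other cells can also give UMIs, as the fibroblast gene *Dcn* averaged 155 CPM in Tregs against 11470 CPM in fibroblasts, and its part in these shares was not tested. The intervals cover counting error only, since cells of 1 heart are not independent replicates.

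Fibroblasts had UMIs of more of the 10 genes per cell than any other type. After thinning, a fibroblast had UMIs of 5.08 of them on average, and 84.3% of fibroblasts had 4 or more. Tregs had 3.74 on average with 51.0% of cells at 4 or more, unconventional T cells 3.65 and Mo-DCs 3.67. Monocytes (2.23) and Tn (2.45) had the fewest. Among Tregs with an *Nr4a1* UMI (110 cells), *Jun* was seen in 39.1%, against 14.4% of the 153 Tregs without one. *Fosb* was seen in 33.6% against 13.7% of the same cells, *Egr1* in 48.2% against 28.8%, and *Cd69* in 30.0% against 17.7%. *Egr2* was seen in 3.64% against 3.27%. Hearts contributed unequally, since heart 3 held 56 of the 110 cells. Within hearts, *Jun* was more frequent in Tregs with an *Nr4a1* UMI in 6 of 6 hearts (55.4% against 19.0% in heart 3), *Fosb* and *Egr1* in 5 of 6 each, and *Cd69* in 4 of 6, on between 5 and 56 cells with *Nr4a1* per heart.

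The genes whose type means followed each member most closely, among 6307 genes of at least 50 CPM in some type, were led for *Fos* by *Rnd3* (r = 0.96), *Pgf* (0.95) and *Mmp14* (0.95). For *Fosb* they were *Vcam1* (r = 0.94), *Itga9* (0.94) and *Col5a3* (0.93), and for *Jun* *Tnfrsf12a* (r = 0.94) and *Fndc3b* (0.92). *Egr1* was followed by the collagen gene *Col1a1* (r = 0.93), *Calu* (0.92) and *Rasl11a* (0.91), and *Egr2* by *Jund* (0.85), *Slc38a2* (0.83) and *Egr1* (0.83). *Nr4a1* was followed by the AP-1 gene *Jund* (r = 0.95), *Ephx1* (0.90) and *Slc38a2* (0.90). The closest to *Nr4a2* were *Osbpl3* (r = 0.92), *Cep250* (0.92) and *Myl12a* (0.91), and to *Nr4a3* *H2-Q7* (0.90) and *Ubxn2a* (0.88). *Junb* was followed by *Midn* (r = 0.90), *Nfkb1* (0.87) and *Tmem135* (0.84), and *Cd69* by *Srrm2* (0.94), *Sf3b3* (0.93) and *Tsc22d3* (0.93). Each r is over 14 types.

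The study compared IL-33+ with IL-33- grafts to learn how IL-33 made in the graft changes the cells within it. In Tregs, all 10 genes had a higher fitted mean in IL-33+ hearts, by an amount that ran from 1.04-fold for *Nr4a2* to 3.76-fold for *Egr2*. Because this contrast was known when the genes were chosen, the values are a description. *Nr4a1* was 449, 885 and 1264 CPM in hearts 1, 2 and 3, and 319, 325 and 315 CPM in hearts 4, 5 and 6. The IL-33+ hearts were all higher and widely spread, while the IL-33- hearts were almost equal. The log2 fold change (IL-33+ over IL-33-, on the log2(CPM + 10) scale as for all fold changes here) was 1.29 with an SE of 0.27, which is 2.45-fold. *Fos* was 196, 549 and 301.1 CPM in IL-33+ and 135, 167 and 101.1 CPM in IL-33- hearts, a log2 fold change of 1.22 (SE 0.34). *Cd69* was 217, 669 and 261 CPM against 183, 105 and 147 CPM (log2 fold change 1.20, SE 0.34). *Egr2* was 32.5, 124 and 37.8 CPM against 5.45, 23.2 and 0 CPM (log2 fold change 1.91, SE 0.64), from 26 UMIs in IL-33+ and 3 in IL-33- hearts. For these 4 genes the groups did not overlap, as was the case with higher IL-33+ values for 4.04% of the 7275 genes tested in Tregs.

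The other 6 overlapped between groups. *Egr1* was 202, 1855 and 525 CPM in IL-33+ and 181, 372 and 171 CPM in IL-33- Tregs (log2 fold change 1.33, SE 0.42). *Jun* was 167, 297 and 425 CPM against 140, 88.7 and 219 CPM (0.93, SE 0.35), and *Fosb* 167, 474 and 335 CPM against 213, 96.5 and 276 CPM (0.71, SE 0.35). *Junb* was 3075, 4465 and 7428 CPM against 3867, 4069 and 4324 CPM (0.19, SE 0.19). The 2 NR4A genes that T cells expressed most broadly differed little between groups. *Nr4a2* was 379, 479 and 799 CPM against 488, 494 and 537 CPM (0.06, SE 0.25), and *Nr4a3* 650, 1071 and 1246 CPM against 859, 973 and 784 CPM (0.13, SE 0.22). Heart 1 was the lowest IL-33+ heart for all 10 genes, and the lowest of all 6 hearts for *Nr4a2*, *Nr4a3* and *Junb*. Over all 7275 genes in Tregs, 0 (0%) reached an adjusted p of 0.05 in limma with Benjamini-Hochberg adjustment and 0 in limma-voom, and 371 had an unadjusted limma p of 0.05 or less.

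**Figure D2:**
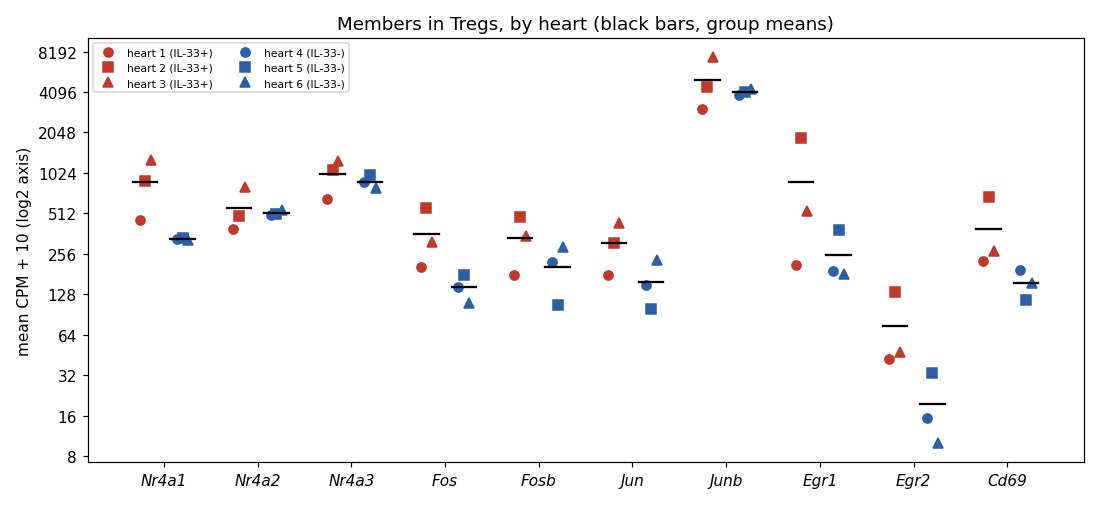
Level of the 10 genes in Tregs as mean CPM + 10 on a log2 axis, with 1 point per heart (red, IL-33+ and blue, IL-33-) and black bars at group means. The groups are apart for *Nr4a1*, *Fos*, *Egr2* and *Cd69*, and heart 2 is far above the other hearts for *Egr1* (1855 CPM) and *Cd69* (669 CPM).

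The high values of heart 2 rested partly on 1 cell. Among its 25 Tregs, a cell of 3692 UMIs held 130 of the 160 *Egr1* UMIs, 34 of the 68 *Nr4a1* UMIs, 24 of the 43 *Fos* UMIs and 5 of the 11 *Egr2* UMIs. The same cell had 38 UMIs of *Nr4a3* and 53 of *Junb*, 0 of *Jun* and *Nr4a2*, and no UMI of *Foxp3* or *Ctla4*. It had 3 UMIs of *Trac* and 1 of *Il2ra*, and no UMI of the 7 macrophage, 7 ILC2 or 3 fibroblast markers. The next highest Treg had 31 *Egr1* UMIs. Without this cell the log2 fold change of *Egr1* was 0.67 (SE 0.33), of *Nr4a1* 1.05 (SE 0.28), of *Fos* 0.93 (SE 0.32) and of *Egr2* 1.68 (SE 0.64), while *Cd69* was nearly the same at 1.18 (SE 0.34). *Nr4a3* then turned to -0.08 (SE 0.22). *Fosb*, with 18 of its 35 UMIs in heart 2 from this cell, went from 0.71 to 0.48 (SE 0.34) without it. For *Cd69*, a different cell gave 36.5% of the heart 2 level, which was 442.5 CPM without that other cell.

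Another definition of Tregs gave smaller numbers of cells. It took cells from any T cell annotation, NKT cells included, and so also cells outside the annotated Tregs. In T cell-annotated cells with a *Foxp3* UMI, of which heart 2 had 5 and the other hearts between 12 and 37, *Nr4a1* was again higher in IL-33+ hearts (log2 fold change 1.20, SE 0.41). *Egr1* was 0.86 (SE 0.43) and *Cd69* 0.65 (SE 0.46). *Fosb* was 0.65 (SE 0.53), close to its value in annotated Tregs. *Fos* was 137, 0 and 260 CPM against 98.8, 91.7 and 102.8 CPM, so that its mean was higher in IL-33+ hearts (132 against 97.8 CPM) while its fitted log2 fold change was -0.55 (SE 0.78). *Jun* likewise had means of 178 and 110 CPM and a fitted value of -0.04 (SE 0.85). Both fitted values include heart 2 at 0 CPM, with 0 UMIs in its 5 cells. *Nr4a2* was -0.22 (SE 0.42) and *Junb* 0.00 (SE 0.23), and *Egr2*, with 8 UMIs in all, was not tested. In annotated Tregs without cells that held several macrophage or ILC2 markers, *Nr4a1* was 1.501 (SE 0.30), *Fos* 1.05 (SE 0.37) and *Cd69* 0.73 (SE 0.34). There the groups overlapped for *Fos*, with 159 CPM in heart 1 and 180 CPM in heart 5. They stayed apart for *Nr4a1*, *Egr2* and *Cd69*, as for 295 of 6842 genes with higher IL-33+ values.

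Genes that respond alongside the members were counted in the same Tregs. Of 21 other immediate early and feedback genes, 20 could be tested and all 20 had a higher mean in IL-33+ hearts, with a median log2 fold change of 0.58, against -0.02 over all genes. *Btg2* (1.34, SE 0.32) and *Gadd45b* (1.31, SE 0.35) were highest, and *Maff* (0.03) and *Myc* (0.04) lowest. Of 18 T cell receptor response genes, 11 of the 17 tested were higher and 6 lower (median 0.24). They ran from *Ccl1* (1.27, SE 0.72) and *Nfkbid* (1.26, SE 0.36) to *Tnfrsf9* (-0.52, SE 0.26) and *Nfatc1* (-0.53, SE 0.26). The study named *Ccl1* and *Slamf1* of this list from these hearts. Of 10 upstream and partner genes, 6 of the 8 tested were higher and 2 lower (median 0.41), with *Mapk3* (1.602, SE 0.59) and *S1pr1* (1.11, SE 0.46) at one end and *Srf* (-0.70, SE 0.73) at the other. No gene of these lists was called. Without the heart 2 cell with the most *Egr1* UMIs, 18 of the 20 other immediate early and feedback genes were higher and 2 lower. The counts were also 18 and 2 in annotated Tregs without cells that held several macrophage or ILC2 markers. In T cells with a *Foxp3* UMI, 13 were higher and 6 lower.

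Other measures were examined in all annotated Tregs. All 10 heat shock genes were higher in IL-33+ Tregs (median log2 fold change 0.55), led by *Hspd1* (0.72, SE 0.37) and *Hspa1a* (0.71, SE 0.78), with *Hspe1* (0.02) and *Hsp90ab1* (0.08) lowest and 0 called. Their summed level was 4285, 3904 and 7978 CPM in hearts 1, 2 and 3 and 4117, 4255 and 3778 CPM in hearts 4, 5 and 6, so that heart 3 was alone at the top and the other 5 hearts overlapped. The 7 ILC2 markers summed to 727, 1532 and 1505 CPM against 418, 497 and 2118 CPM, and the 4 NK cell markers to 136, 159 and 581 CPM against 120, 67.6 and 104 CPM. The 7 macrophage markers summed to between 175 and 248 CPM in all 6 hearts. Of the 5 Treg markers 4 were lower in IL-33+ Tregs (median log2 fold change -0.32), with sums of 3168, 2805 and 2657 CPM against 4515, 2970 and 3191 CPM. The 3 naive T cell markers had a median of 0.90 and summed to 208, 387 and 201 CPM against 203, 180 and 79.5 CPM. Mitochondrial genes took between 4.46 and 5.87% of UMIs. The part of these heat shock genes and cell type markers in the member values was not tested.

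Outside Tregs, where the contrast was tested, no member was called in any of the 13 types. The share of genes called was 0% in Tem/eff (of 9392 tested), Tcm (7767), Tn (6547), NKT cells (9296), NK cells (9565), B cells (7014), macrophages (9682) and cDCs (7949). It was 0.0128% in Trm-like cells, 0.0272% in unconventional T cells, 0.014% in monocytes, 0.0702% in Mo-DCs and 0.0187% in fibroblasts. Of 127 pairs of member and type, 82 had a higher and 45 a lower mean in IL-33+ hearts, and the lowest adjusted p was 0.23 (limma). Before adjustment, 23 pairs (18.1%) had a limma p no greater than 0.05, 17 of them higher, as did 4.69% of all 105900 pairs of gene and type. The same hearts and co-regulated genes stand behind these pairs. *Egr2* had too few UMIs for a test in Tn, Trm-like cells and cDCs.

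**Figure D3:**
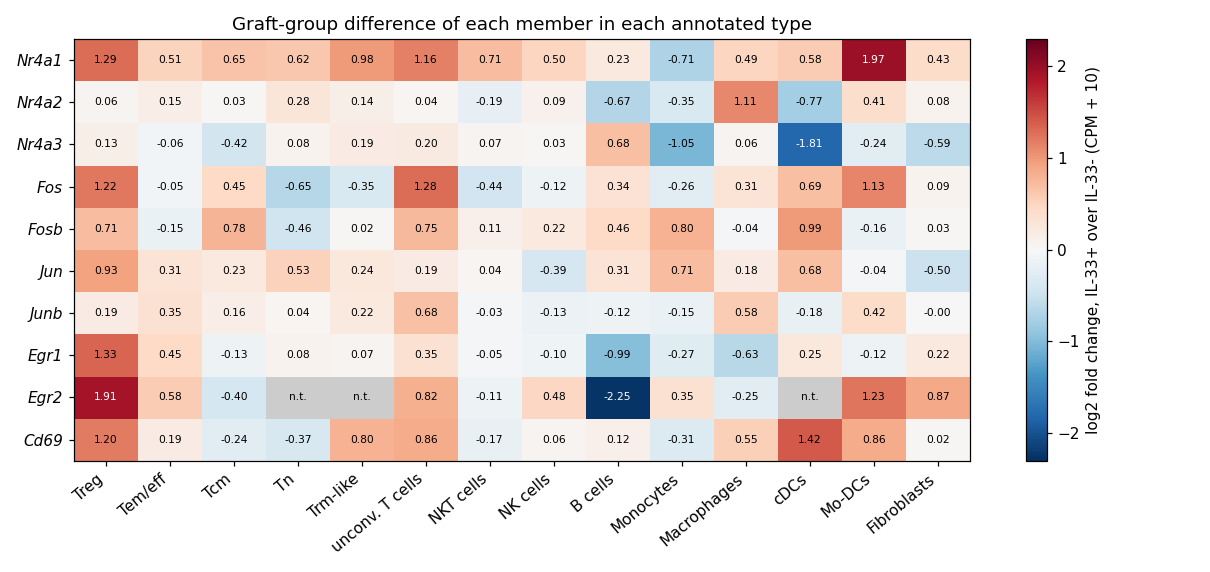
Log2 fold change of each gene (rows) in each annotated type (columns), IL-33+ over IL-33-, with red higher and blue lower in IL-33+ hearts and n.t. where there were too few UMIs to test. The *Nr4a1* row is positive in all types but monocytes, and the Treg column is positive for all 10 genes.

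*Nr4a1* had a higher mean in IL-33+ hearts in 13 of 14 types, Tregs included, with a median log2 fold change of 0.60. In Trm-like cells it was 235, 270 and 473 CPM in IL-33+ and 172, 130 and 162 CPM in IL-33- hearts. The log2 fold change of 0.98 (SE 0.27) had an adjusted p of 0.81 (limma). Unconventional T cells had 229, 347 and 526 CPM against 176, 150 and 129 CPM (1.16, SE 0.38, adjusted p = 0.91), where heart 2 was 2 cells. Cells under this annotation also held macrophage genes, with means of 1030 CPM for *Lyz2*, 1090 CPM for *Apoe* and 698 CPM for *C1qa* against 192 CPM for *Cd3e*, and had a median of 10175 UMIs. Their 7 macrophage markers summed to 2234, 3307 and 3303 CPM against 4035, 4654 and 2670 CPM, and the part of these in the *Nr4a1*, *Junb* and *Fos* values of this type was not tested. The groups were apart in both types, as were 4.82% of genes in Trm-like cells and 3.68% in unconventional T cells with higher IL-33+ values. In Mo-DCs *Nr4a1* was 330, 1281 and 743 CPM against 318, 44.2 and 300.8 CPM, a log2 fold change of 1.97 (SE 0.56, adjusted p = 0.23), again without overlap (3.95% of genes). The 1281 CPM came from 13 UMIs in 4 cells of heart 2 and the 44.2 CPM from 1 UMI in 7 cells of heart 5. With heart 4 left out the adjusted p was 0.027 (limma), with heart 6 left out 0.037, and over all hearts left out in turn it ranged up to 1.00. The fit without heart 4 called 9 of 5003 genes, and that without heart 6 called 14 of 5273. The 3 neutrophil markers were all lower in IL-33+ Mo-DCs (median log2 fold change -1.001, *S100a8* called), with sums of 1209, 7996 and 6941 CPM against 68670, 15770 and 1202 CPM, and their part in the *Nr4a1* value was not tested. Monocytes were the exception, with 91.8, 51.0 and 43.4 CPM against 124, 107 and 83.1 CPM (log2 fold change -0.71).

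Set beside other lymphocytes of the same heart, the *Nr4a1* level of Tregs was higher in all 6 hearts. The log2 ratio of Tregs to the other lymphocytes was 0.76, 1.597 and 1.25 in hearts 1, 2 and 3 and 0.01, 0.93 and 0.82 in hearts 4, 5 and 6. The groups overlapped in this ratio, and whether the graft difference was greater in Tregs than in other lymphocytes was not tested.

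*Nr4a3* ran the other way in cDCs. It was 750, 85.8 and 388 CPM in IL-33+ and 787, 1464 and 1062 CPM in IL-33- hearts, with every IL-33- heart above every IL-33+ heart, as in 5.09% of genes in cDCs. The log2 fold change of -1.81 (SE 0.49) had an adjusted p of 0.34 (limma). Heart 2 gave 6 UMIs from 6 cDCs, and its removal brought the log2 fold change to -0.97. Without the filter on low counts the adjusted p was 0.0014 (limma), in a fit that called 20 of 13218 genes. *Nr4a2* in cDCs was also lower in IL-33+ hearts, with overlap (-0.77, SE 0.33, adjusted p = 0.71). *Fosb* in cDCs was 145, 223 and 262 CPM against 143, 88.0 and 74.1 CPM (0.99, SE 0.35, adjusted p = 0.62), apart by the small gap between hearts 1 and 4, as were 7.35% of genes with higher IL-33+ values there.

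**Figure D4:**
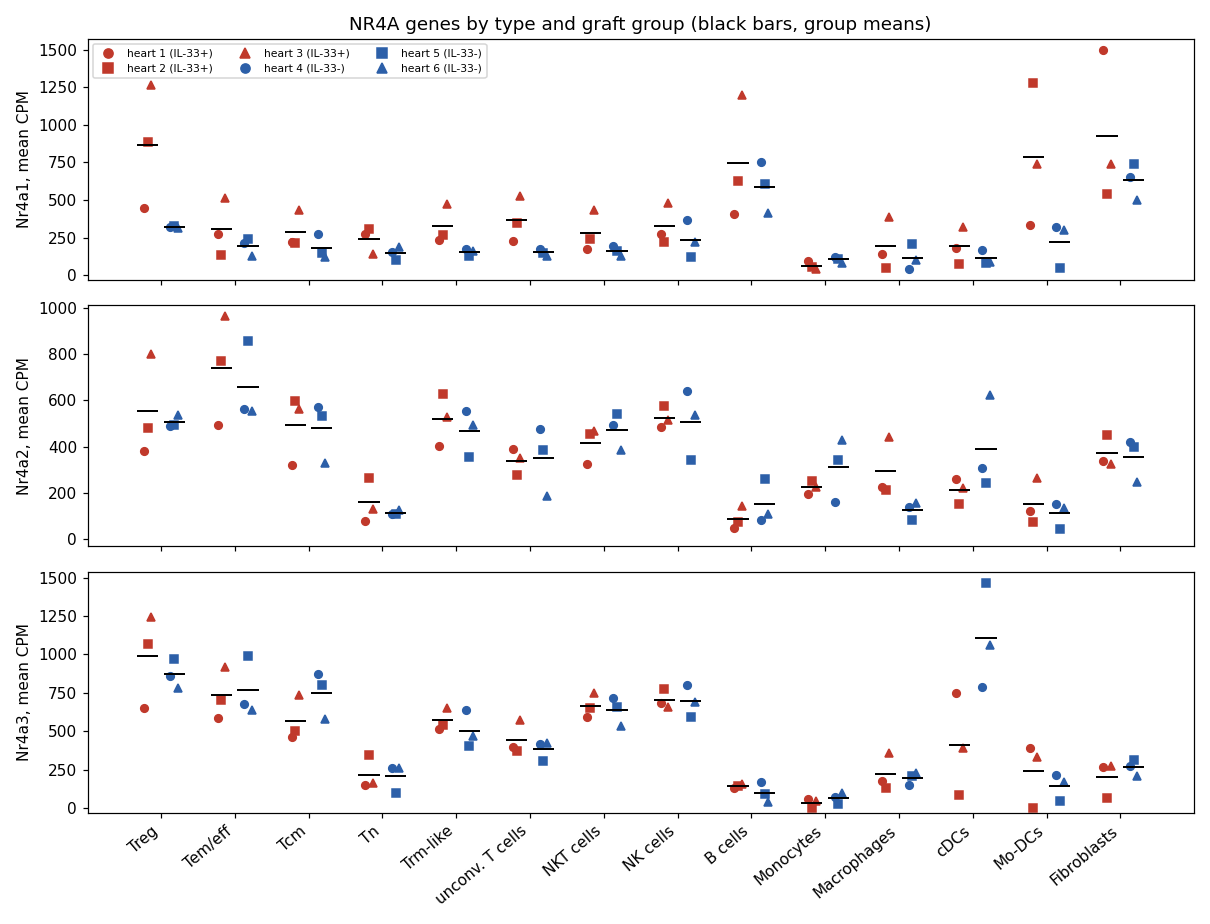
Mean CPM (linear axis) of *Nr4a1*, *Nr4a2* and *Nr4a3* in each annotated type, with 1 point per heart (red, IL-33+ and blue, IL-33-) and black bars at group means. *Nr4a1* group means are higher in IL-33+ hearts in all types but monocytes, while the widest gap for *Nr4a3* is in cDCs, where the IL-33- hearts reach 1464 CPM.

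In macrophages the pattern was of *Nr4a2* and *Junb*. *Nr4a2* was 226, 213 and 442 CPM in IL-33+ and 141, 84.8 and 155 CPM in IL-33- hearts (log2 fold change 1.11, SE 0.30, adjusted p = 0.96). *Junb* was 2288, 2281 and 4317 CPM against 1655, 2111 and 1915 CPM (0.58, SE 0.22, adjusted p = 0.99). Both were without overlap, as were 3.82% of genes, and in both heart 3 was the highest. Heart 3 also had the most *Fos* (1430 CPM against 279 to 664 CPM in the other hearts) and *Jun* (985 CPM against 157 to 404 CPM) in its 98 macrophages. Their summed heat shock level was 6997 CPM in heart 3 and between 4016 and 5053 CPM in the others, and its part in these values was not tested.

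In the other types annotated as T cells, too, no member was called. *Junb* in unconventional T cells was 3194, 3393 and 3927 CPM against 2285, 1845 and 2448 CPM (0.68, SE 0.21, adjusted p = 0.78). *Fos* in the same cells was 235, 791 and 905 CPM against 128, 224 and 381 CPM, with overlap (1.28, SE 0.41, adjusted p = 0.84). It was called only with heart 1 left out (1.88, adjusted p = 0.00039, limma). That fit called 70 of 6445 genes and had 2 cells in heart 2. *Cd69* in Trm-like cells was 209, 290 and 266 CPM against 147, 168 and 112 CPM (0.80, SE 0.26, adjusted p = 0.92), without overlap. In Tn, *Jun* was higher without overlap, at 305.9, 244 and 269 CPM against 240, 132 and 198 CPM (0.53, SE 0.32, adjusted p = 0.95), as were 4.38% of genes. *Fos* and *Cd69* were lower there without overlap, as were 5.44% of genes (-0.65, SE 0.43, and -0.37, SE 0.34). In B cells, where the median over all genes was itself 0.28, *Egr1* was 240, 163 and 445 CPM against 219, 1865 and 346 CPM (-0.99, SE 0.48, adjusted p = 0.84), the 1865 CPM being the 4 cells of heart 5. In fibroblasts, where *Egr1*, *Fos* and *Fosb* were highest, their log2 fold changes were 0.22, 0.09 and 0.03.

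Pooling cells left 0 members called, of 12535 genes in lymphocytes without Tregs (0% called) and of 11089 in myeloid cells (0% called). *Nr4a1* in pooled lymphocytes was 260, 286 and 524 CPM in IL-33+ and 316, 166 and 173 CPM in IL-33- hearts, with overlap through heart 4 (0.67, SE 0.23, adjusted p = 0.68). The cell mix of this pool differed between groups: the 3 B cell markers had a median log2 fold change of 1.01, the 4 NK cell markers of 0.84 and the 3 T cell markers of -0.40. Within each of the 8 pooled types the fitted *Nr4a1* value was also above 0, between 0.23 in B cells and 1.16 in unconventional T cells. The part of the cell mix in the pooled *Nr4a1* value was not tested. The other 9 members had log2 fold changes between -0.07 (*Nr4a3*) and 0.24 (*Cd69*) in lymphocytes. In pooled myeloid cells *Nr4a1* was 155, 252 and 504 CPM against 133, 139 and 132 CPM (0.96, SE 0.30, adjusted p = 0.99), without overlap, as were 4.27% of genes. The neutrophil markers in this pool summed to 147, 1279 and 2961 CPM against 10880, 3704 and 274 CPM, and their part was not tested. *Nr4a3* was 233, 72.5 and 335 CPM against 316, 410 and 437 CPM (-1.05, SE 0.36, adjusted p = 0.99), with overlap. The difference of the graft effect between myeloid cells and lymphocytes was tested for 10734 genes with 0% called. It was -0.98 (SE 0.45, adjusted p = 0.93) for *Nr4a3* and 0.28 (SE 0.32, adjusted p = 0.94) for *Nr4a1*. Of the 21 other immediate early genes, 20 had a higher mean in IL-33+ myeloid cells (median 0.40) and 17 in lymphocytes (median 0.19), with 0 called in either. *Btg2* (0.68, SE 0.36) and *Zfp36* (0.57, SE 0.26) led in myeloid cells, and *Atf3* (0.63, SE 0.24) and *Egr3* (0.63, SE 0.28) in lymphocytes. The 10 heat shock genes had medians of 0.22 in myeloid cells and 0.07 in lymphocytes. Their sum was highest in heart 3 in both pools, at 5857 CPM in myeloid cells and 5322 CPM in lymphocytes, against ranges of 3748 to 4706 CPM and 4512 to 4838 CPM in the other hearts.

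One heart often held the top value. Heart 3, an IL-33+ heart, was the highest of the 6 for *Nr4a1* in 10 of 14 types and for *Jun* in 10 of 14 types, and for *Fos* in 6. Over all 113175 tested pairs of gene and type, heart 3 was the highest in 12.9%. That share was largest for hearts 2 (22.3%) and 5 (19.9%), which had the fewest cells (230 and 284), and its dependence on cell number was not tested. *Egr1* was highest most often in heart 4 (5 types) and *Nr4a2* in hearts 2 and 3 (4 types each). With heart 3 left out, the log2 fold change of *Nr4a1* was 0.96 in Tregs and 0.37 in pooled lymphocytes.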

How the data were processed

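Cells of 6 hearts (3 per group) were pooled in 1 3' single-cell library with hashtags. The labels' processing notes and the study's methods name Cell Ranger, mm10 and Partek Flow 10.0.23.0425, in which the authors filtered cells on counts, genes and mitochondrial share. The deposited values are log2(CPM + 1) per cell, with the authors' heart and type labels; each heart had its own hashtag, and how cells were called from hashtag counts is not given in the sources used here. CPM was recovered from the log2 values, and UMIs from the size of the smallest step: 99.9% of low values were whole within 0.05 UMI. Depth was 908135 to 7012891 UMIs per heart.

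The CPM of a type's cells was averaged per heart, and log2(mean CPM + 10) was fitted with limma 3.58.1 in R 4.3.3 (lmFit, eBayes with trend), 1 fit per type, over genes with at least 10 UMIs and a UMI in at least 3 hearts. P-values were adjusted by Benjamini-Hochberg over all genes of the fit, and an adjusted p of 0.05 or less was called. Lymphocytes (8 types, Tregs left out) and myeloid cells (4 types) were also pooled, and their difference was tested. For shares, each cell was thinned to 1500 UMIs, with exact binomial intervals at 95%. Python 3.11.15 was used with numpy 2.4.6, scipy 1.17.1 and pandas 2.3.3. The fits were tested on simulated data. No doublet caller was run. Alternatives were other pseudocounts, no low-count filter, summed UMIs, limma-voom, cyclic loess, hearts with 10 or more cells, other Treg definitions and each heart left out. The members, gene lists and rules were chosen with earlier results of these data known. The named genes are the 10 members, the highest and lowest of each list, and the 3 genes most like each member; some genes that this rule names are not reported here. P-values set the difference between groups against the spread between hearts within a group, moderated over all genes by limma.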

Additional observations from a re-analysis of the deposited data

How the results depend on the processing

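No paired analysis was possible because GEO's labels number the hearts 1 to 3 and 4 to 6, so that the 2 groups share no number there, and no source used here ties a heart of one group to a heart of the other. Among 159 alternative values of the 10 genes in Tregs, 8 changed sign. Of the rest, 131 moved by less than the SE of the main log2 fold change and 20 moved further. The sign changed for *Nr4a2* with summed UMIs (-0.057) and in T cells with a *Foxp3* UMI (-0.22), where *Fos* (-0.55) and *Jun* (-0.042) changed too, and for *Nr4a3* without the Treg with the most *Egr1* UMIs (-0.078), an alternative chosen after seeing the data. With each heart left out in turn, *Nr4a2* ranged from -0.24 to 0.29, *Nr4a3* from -0.058 to 0.41 and *Junb* from -0.14 to 0.50, while *Nr4a1* ranged from 0.96 to 1.70, *Fos* from 0.83 to 1.55 and *Egr1* from 0.51 to 2.08. *Egr2* was 3.34 with a pseudocount of 1 CPM and 0.88 with 50 CPM. The number of genes with a fitted value above 0 in Tregs was 10 of 10, and in T cells with a *Foxp3* UMI it was 6 of the 9 that could be tested. Outside Tregs the calls went from 0 to 1 without the low-count filter (*Nr4a3* in cDCs) and ranged from 0 to 1 with a heart left out. Of 400 alternative values of 31 tested pairs, 396 stayed on the same side of the threshold and 4 passed it. Over all genes, calls rose from 0 to 8 in Tregs without heart 1 and from 0 to 36 in lymphocytes without heart 4. The type with the largest share of cells was as after thinning for 5 of the 10 genes without thinning. The cause of these changes was not tested, and the settings that leave out a heart also had fewer samples. Low UMI numbers limit *Egr2* most.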
